A study of Mus musculus with 16 samples.

Results

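H3K4me3 in the hippocampus of wild-type (WT) mice was compared between a brief exploration of an unfamiliar environment and standard conditions. The comparison was made on the H3K4me3 libraries whose titles carry wt_NE (2 libraries) or wt_HC (2 libraries), 4 of the 16 samples in the series. Novelty meant 1 h spent alone in a white box that held tubing and toys, and the WT mice under standard conditions had no treatment label. Kdm5c KO mice were sampled after the same novelty exposure (2 libraries) and under standard conditions (2 libraries), and these 8 libraries formed 1 statistical fit. All were adult males, 2 to 4 months old, of a mixed F1 background of C57 and 129, and mutants and controls were littermates. Kdm5c KO mice lack the X-linked gene of an H3K4 demethylase; the labels do not say which exons are deleted. Each library was made from hippocampi pooled from 2 mice, so the spread between libraries is a spread between pools. A further cohort, the control mice of the line labelled ifKO (written ifWT here), was C57BL/6J, was sampled under standard conditions in 2 libraries, and is used below for levels and not in the fit. The mutants of that line, written ifKO, were also sampled under standard conditions in 2 libraries and are used in the same way. Mice of both groups were 2 to 4 months old. Apart from levels, these libraries enter only an alternative fit of all 12 H3K4me3 libraries.

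H3K4me3 is laid down around the start sites of active and poised genes, by methyltransferases of the SET1 and MLL families, and is removed by demethylases of the KDM5 family. In hippocampal neurons, exploration of an unfamiliar place induces a first wave of activity-dependent genes, such as the transcription factor genes Fos, Fosb, Egr1, Nr4a1 and Npas4 and the synaptic gene Arc. The promoters of such genes carry H3K4me3 before they are induced.

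The 8 libraries held 22055154 to 30435735 counts over the 35996 distinct regions. After a filter on low counts, 35841 regions were tested. Libraries of a group correlated at r of 0.995 to 0.996 on the log scale across regions, which are not independent replicates. Among the 11249 regions with a mean of at least 5 on the log2 scale of CPM, the count scaled to library size, the first principal component (63.9% of the variance) separated the genotypes and the second (11.1%) separated WT novelty (scores 4.0 and 2.18) from WT standard (scores -3.22 and -3.69). On that second component KO novelty scored 0.99 and 2.14, whereas the KO standard libraries stood far apart from each other, at -4.76 for replicate 1 and 2.36 for replicate 2. The region at the start of Kdm5c (chromosome X, 152232907 to 152234889 of mm10) had 62.6 and 73.4 CPM in WT novelty and 67.3 and 73.1 CPM in WT standard, with 61.0 and 62.0 CPM in KO novelty and 61.6 and 61.5 CPM in KO standard. This signal at the gene's start is no check of the deletion. The hippocampal granule cell gene Prox1 had 87.2 and 104 CPM in WT novelty and 98.1 and 112 CPM in WT standard. In bulk tissue, fewer cells of a type and less of the mark per cell cannot be told apart.

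After novelty, H3K4me3 was higher at a small set of regions in WT hippocampus, 36 of 40 within 2 kb of a gene's end or start. The regions with the smallest p lay at Taf4, which encodes a subunit of the general transcription factor TFIID, at Sirt1, which encodes an NAD-dependent deacetylase, and at Pde10a, which encodes a phosphodiesterase that degrades cAMP and cGMP. Fosb was called as well, and no other gene of the activity-induced lists was. Most changes were small: the median log2 change of the regions called higher was 0.34 and 35 of the 40 were under 1.5-fold. A region is called, or said to have risen or fallen, when its edgeR quasi-likelihood adjusted p (Benjamini-Hochberg over all 35841 regions) was under 0.05.

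In all, 47 of 35841 regions were called (0.131%), 40 higher (0.112%) and 7 lower (0.0195%) in WT novelty than in WT standard. At an unadjusted p under 0.05 there were 1145 higher and 952 lower regions (5.85% together). The number called rested on each of the 4 WT libraries, with 10 regions called without WT novelty replicate 1, 7 without WT novelty replicate 2, 1 without WT standard replicate 1 and 14 without WT standard replicate 2. The region that kept its call in all 4 was at Taf4, and 33 of the 47 were called in none of them. With 2 libraries against 2, an exact permutation of a single region gives no p below 0.333, so the calls rest on a spread shared across groups and regions.

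**Figure D1:**
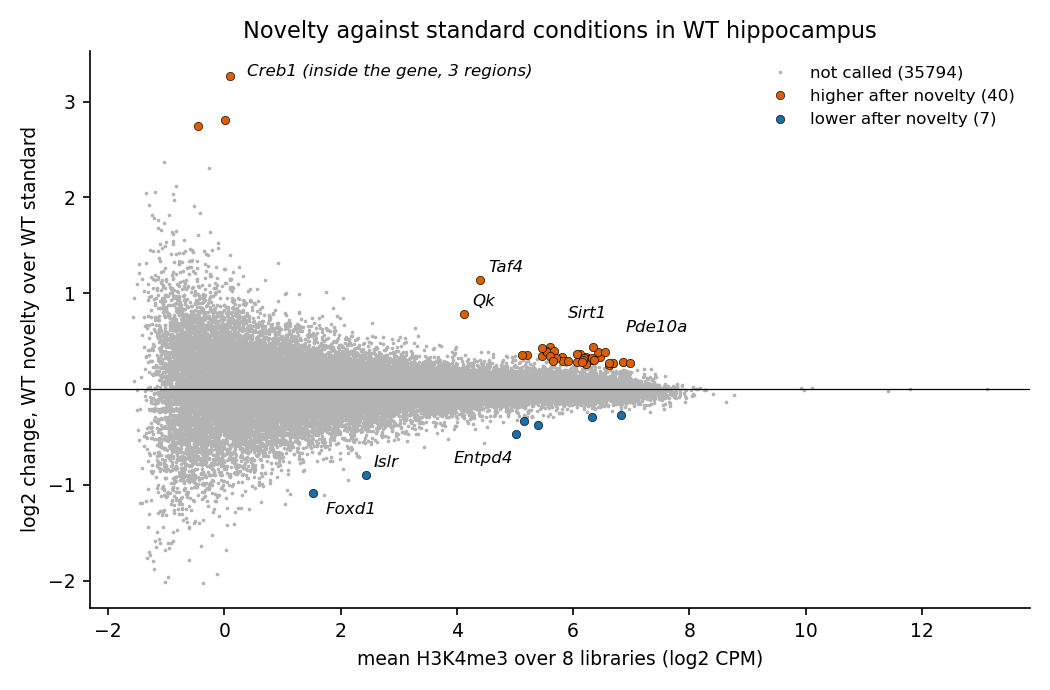
Each point is a tested H3K4me3 region, with its mean level over 8 libraries (log2 CPM, horizontal axis) and its log2 change in WT, novelty over standard (vertical axis). The 40 regions called higher (orange) and 7 called lower (blue) lie mostly between 5 and 7 on the level axis, and the 3 Creb1 regions stand apart at low level.

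Promoter windows of Taf4, Sirt1 and Fosb are shown because these genes lead the calls or the list of activity-induced genes. They run from 250 bases before to 50 bases after the annotated start, 5′ to 3′, from RefSeq on GRCm38.p6. Capitals mark matches to the motif of the Egr family, GCGNGGGCG, on either strand. The Taf4 window (chr2:179976597-179976896, minus strand) has 3 matches, of which the first pair overlap. None of them lies in the last 97 bases, the only part of the window inside the called region. The Sirt1 window (chr10:63338986-63339285, minus strand) has 3 matches, the first of them outside the last 86 bases that the called region holds. The Fosb window (chr7:19309996-19310295, minus strand) has 1 and lies wholly inside the called region. The cAMP response element (TGACGTCA), the AP-1 motif (TGANTCA), the core of the heat shock element (TTCNNGAA) and the CArG box had no match in these 3 windows, which says only that these letters are not there.
Taf4: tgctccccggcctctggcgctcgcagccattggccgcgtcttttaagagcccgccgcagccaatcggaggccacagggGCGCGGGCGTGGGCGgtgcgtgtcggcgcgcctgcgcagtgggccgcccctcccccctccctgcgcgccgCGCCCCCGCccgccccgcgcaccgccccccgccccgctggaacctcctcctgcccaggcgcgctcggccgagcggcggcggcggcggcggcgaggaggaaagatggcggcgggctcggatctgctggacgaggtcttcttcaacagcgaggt
Sirt1: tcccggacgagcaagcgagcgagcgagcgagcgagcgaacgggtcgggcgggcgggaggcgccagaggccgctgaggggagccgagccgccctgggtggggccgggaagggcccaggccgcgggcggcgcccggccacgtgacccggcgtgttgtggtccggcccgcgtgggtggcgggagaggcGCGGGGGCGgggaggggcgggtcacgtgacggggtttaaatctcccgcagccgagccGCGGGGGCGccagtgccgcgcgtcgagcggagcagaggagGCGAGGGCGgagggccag
Fosb: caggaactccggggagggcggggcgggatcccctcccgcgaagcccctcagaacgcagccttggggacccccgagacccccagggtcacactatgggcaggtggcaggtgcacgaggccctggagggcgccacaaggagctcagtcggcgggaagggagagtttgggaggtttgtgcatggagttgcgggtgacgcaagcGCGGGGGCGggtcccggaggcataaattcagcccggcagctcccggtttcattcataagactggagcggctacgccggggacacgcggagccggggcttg

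Across promoters, the Egr motif had a match in 5.55% of the 32851 windows of the table and in 10.7% of the 14342 windows held by the H3K4me3 regions (at least 150 of its 300 bases inside a region). Of the 21 windows held by regions called higher it matched 9, among them those of Fosb, Ybx3, Sos2, Akt1 and Jag2. The Taf4 and Sirt1 windows have fewer than 150 bases inside the called regions and are not among the 21. The AP-1 motif matched 2 of the 21 (4.53% of the 14342), the heat shock element core 1 (6.57%), and the cAMP response element and the CArG box 0 (3.07% and 1.28%). The motif is rich in G and C, and the mean GC content was 73.8% in those 21 windows, 42.9% in the 6 windows of regions called lower and 61.4% over the 14342. A window is held by 20 of the regions called higher and 4 of those called lower, 51.1% of the calls, so a check of GC content over the called regions is void.

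The called Taf4 region spans the gene's start and lies beside its strongest region. It runs along chromosome 2 from 179975979 to 179976693, holds the last 97 bases of the window printed above and lies within 2 kb of the start of the noncoding gene 4921531C22Rik. It had 25.9 and 29.0 CPM in WT novelty and 12.3 and 12.7 CPM in WT standard. Every WT novelty library was above every WT standard library. The log2 change was 1.14 ± 0.14 (SE, n = 2 each, edgeR adjusted p 1.1e-05), and it stayed between 1.05 and 1.21 when any 1 of the 4 libraries was left out. The regions on either side were not called. The stronger one over the upstream side (179976822 to 179977834) had 45.6 and 49.6 CPM in WT novelty and 47.5 and 48.4 CPM in WT standard, a log2 change of -0.01 ± 0.06. The one further into the gene (179974830 to 179975637) had 24.5 and 24.6 CPM in WT novelty and 21.9 and 20.6 CPM in WT standard, a log2 change of 0.21 ± 0.09 with an edgeR adjusted p of 0.77.

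At Sirt1 the called region was the gene's strongest. It spans the start (chromosome 10, 63337674 to 63339071) and holds the last 86 bases of the printed window. It had 90.4 and 95.03 CPM in WT novelty and 62.2 and 75.2 CPM in WT standard. The groups did not overlap, but the WT standard libraries differed from each other, and the log2 change of 0.43 ± 0.06 (edgeR adjusted p 0.00023) was 0.30 without WT standard replicate 1, where the call was lost (adjusted p 0.20). The weaker upstream neighbour (63339140 to 63339724) had a log2 change of -0.01 ± 0.12.

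Pde10a is best known from the medium spiny neurons of the striatum, where it is abundant. Its called region is the widest of the 47, 3835 bp at chromosome 17, 8524069 to 8527904, within 2 kb of an annotated end of the gene. It had 98.2 and 96.9 CPM in WT novelty and 72.3 and 77.3 CPM in WT standard, so the groups lay well apart. The log2 change was 0.38 ± 0.06 (edgeR adjusted p 0.0004), and the call was lost without WT standard replicate 1 (0.33, adjusted p 0.165). Regions at the start of Pde10a in the promoter table, further along the chromosome, were not called. The stronger one (8801658 to 8803556) had 79.4 and 82.8 CPM in WT novelty and 74.3 and 81.3 CPM in WT standard. Its log2 change was 0.06 ± 0.06. The weaker one beside it (8800650 to 8801593) changed by 0.01 ± 0.07. The other 24 genes of the striatum list, which could mark tissue from outside the hippocampus, summed to 656 and 647 CPM in WT novelty and 638 and 642 CPM in WT standard, and none of them was called. Of these 24, Isl1 (log2 change 0.83), Rgs9 (0.20) and Rasgrp2 (0.15) had an unadjusted p under 0.05 and were higher, and 0 were lower; the part of other tissue in the Pde10a value was not tested.

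Qk, which encodes an RNA-binding protein needed for myelination, resembled Taf4. A narrow region of 548 bp (chromosome 17, 10318737 to 10319285), within 2 kb of starts of Qk and the noncoding gene Cahm, had 20.6 and 21.7 CPM in WT novelty and 12.1 and 12.4 CPM in WT standard. The log2 change was 0.78 ± 0.15 (edgeR adjusted p 0.0152), and the call was lost without any 1 of the 4 WT libraries (0.155 to 0.414). The strong region beside it (10316472 to 10318600) had 117 and 124 CPM in WT novelty and 128 and 127 CPM in WT standard, a log2 change of -0.08 ± 0.05, and 2 further neighbours changed by 0.10 and -0.11. Setd1b, the gene of an H3K4 methyltransferase, was called at a side region of 703 bp as well, with 42.2 and 41.5 CPM in WT novelty and 31.2 and 34.0 CPM in WT standard. The strongest region within 2 kb of an end or start of Setd1b is assigned first to the neighbouring gene Rhof. That region had 96.0 and 90.8 CPM in WT novelty and 104 and 102 CPM in WT standard. Its log2 change of -0.14 ± 0.05 was not called. The side region, too, lost its call without any 1 of the WT libraries (adjusted p 0.247 to 0.896).

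Neighbouring regions were counted for all calls. Within 5000 bp, 18 of the 40 higher regions had 28 neighbours, of which 20 were above 0 and 2 were called, both inside Creb1. The neighbours' median log2 change was 0.13. Of the 7 lower regions 5 had 11 neighbours, 10 of them below 0, none called, with a median log2 change of -0.12.

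**Figure D2:**
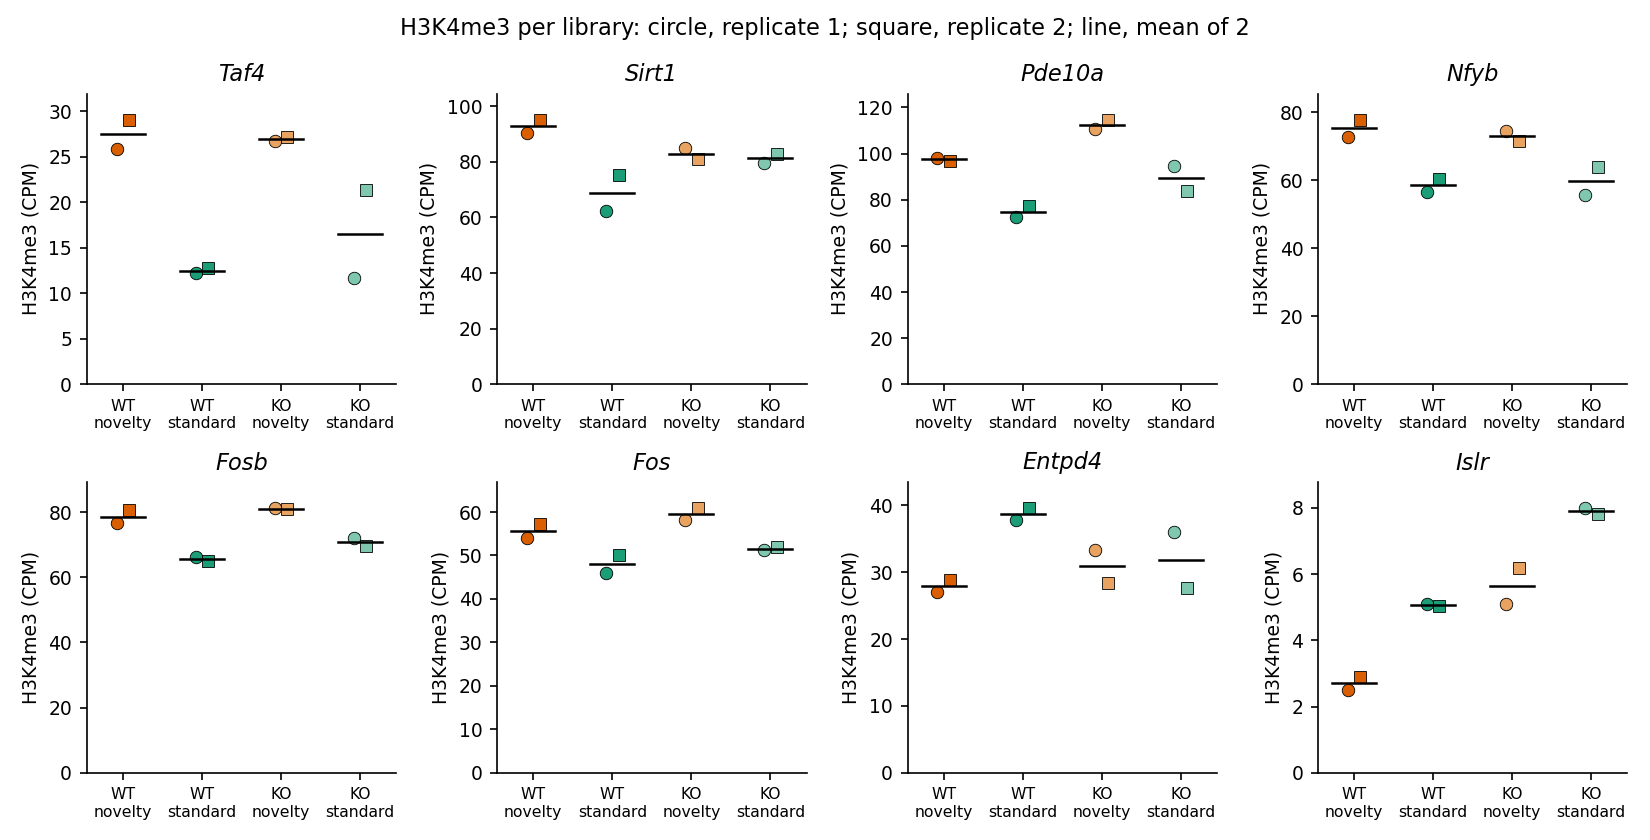
H3K4me3 in CPM (vertical axes, from 0) at 7 called regions and at Fos, which was not called, in each library of the 4 groups, with circles for replicate 1, squares for replicate 2 and lines for the mean of 2. In WT the novelty and standard libraries do not overlap in any panel, whereas in KO the replicates of the standard group lie far apart at Taf4 (11.7 and 21.3 CPM).

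Other genes called higher included some with known roles in chromatin, named here for their roles and not tested as a group. Gatad2a, a NuRD subunit, had 79.0 and 80.0 CPM in WT novelty and 59.9 and 63.9 CPM in WT standard. Rcor1, the CoREST corepressor, had 86.4 and 95.7 CPM in WT novelty and 67.0 and 78.6 CPM in WT standard. Yaf2, a Polycomb repressive complex 1 component, had 88.8 and 92.0 CPM in WT novelty and 69.5 and 77.6 CPM in WT standard. In each of these the groups did not overlap, which the rule for naming regions required, and the log2 changes were 0.36, 0.32 and 0.30. The calls at Gatad2a and Rcor1 were lost without WT novelty replicate 2 (edgeR adjusted p 0.0713 and 0.407) and without WT standard replicate 1 (0.282 and 0.904), and the call at Yaf2 was kept only without WT standard replicate 2 (0.026).

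Nfyb, a subunit of the CCAAT-binding factor NF-Y, had 72.8 and 77.7 CPM in WT novelty and 56.6 and 60.4 CPM in WT standard, a log2 change of 0.37 ± 0.06 (edgeR adjusted p 0.0029), lost without WT novelty replicate 2 (0.116) and WT standard replicate 1 (0.284). Also called were Csnk2a2, a catalytic subunit of casein kinase 2 (log2 change 0.40), Sos2, a guanine nucleotide exchange factor for Ras (0.28), and Slk, a Ste20-like kinase (0.27). Csnk2a2 had 56.4 and 57.0 CPM in WT novelty and 42.3 and 43.8 CPM in WT standard. The regions at Zfp362, Fam189a2, Dmwd, Wtip, Mier3, Zfp704, Cyhr1, Gse1 and Ybx3 rose by 0.30 to 0.44 on the log2 scale. Their edgeR adjusted p ran from 0.0034 to 0.0152. The Gse1 region lies within 2 kb of the start of A330074K22Rik. With each WT library left out in turn, Fam189a2 kept its call in 2 of the 4 fits, Zfp704 in 1, and Csnk2a2, Sos2, Slk and the other 7 in none, with adjusted p of 0.061 to 0.722.

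The 7 regions called lower were at Entpd4, Rtn4, Zbtb18, Islr, Foxd1, Zfp36l2 and 9430053O09Rik. Entpd4, which encodes a nucleotide-hydrolysing enzyme of the Golgi and lysosomes, had 27.1 and 28.8 CPM in WT novelty and 37.8 and 39.6 CPM in WT standard, a log2 change of -0.47 ± 0.09 (edgeR adjusted p 0.0152). Unexposed libraries of the same group also lay far apart there. Scaled by library totals, KO standard had 36.6 and 27.9 CPM, ifWT 27.6 and 39.0 CPM, and the ifKO mutants 24.8 and 41.4 CPM. Rtn4, the gene of the neurite growth inhibitor Nogo, had 36.2 and 37.9 CPM in WT novelty and 48.7 and 47.6 CPM in WT standard. Zbtb18, a repressor gene with a role in the development of cortical excitatory neurons, had 70.5 and 77.3 CPM in WT novelty and 91.4 and 89.6 CPM in WT standard. In all 3 the groups did not overlap, which the rule for naming regions required (15.8% of all regions in this direction). All 3 calls were lost without any 1 of the 4 WT libraries.

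Islr and Foxd1 are genes of connective tissue and stromal cells rather than of neurons, and both regions were weak. Islr had 2.49 and 2.90 CPM in WT novelty and 5.08 and 5.02 CPM in WT standard, a log2 change of -0.90 ± 0.19 (edgeR adjusted p 0.0286) that lost its call without any 1 of the WT libraries (0.143 to 0.52). Foxd1 had 2.70 and 1.56 CPM in WT novelty and 4.13 and 4.797 CPM in WT standard, and its log2 change of -1.09 ± 0.24 was -0.73 without WT novelty replicate 2 (adjusted p 0.545). Its call was also lost without WT standard replicate 1 (0.284) or 2 (0.513). A wider Foxd1 region beside the called one (98354159 to 98356422, 2263 bp) was not called, with a log2 change of -0.045 ± 0.102. None of the 28 vascular and fibroblast-like marker genes was called. Of these, 24 were below 0 and 9 had an unadjusted p under 0.05 and were lower (2.66% of all regions), among them the endothelial genes Abcb1a (-0.29), Erg (-0.20), Cldn5 (-0.15) and Pecam1 (-0.20) and the fibroblast genes Dcn (-0.54) and Col1a2 (-0.40). The summed level of the 28 was 538 and 530 CPM in WT novelty and 595 and 573 CPM in WT standard, and its part in the Islr and Foxd1 values was not tested.

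Activity-induced transcription factor genes carried the mark in both conditions, and 1 of 26 tested was called. Fosb, which encodes an AP-1 subunit, had 76.8 and 80.5 CPM in WT novelty and 66.2 and 65.2 CPM in WT standard. Its log2 change was 0.26 ± 0.05 (edgeR adjusted p 0.0199), and the call was lost without any 1 of the 4 WT libraries (adjusted p 0.0811 to 0.473). Fos, its paralog, had 54.0 and 57.3 CPM in WT novelty and 46.0 and 50.1 CPM in WT standard, a log2 change of 0.21 ± 0.06 with an adjusted p of 0.26. Nr4a1, the gene of an orphan nuclear receptor, had 54.8 and 59.6 CPM in WT novelty and 50.2 and 48.6 CPM in WT standard, with a log2 change of 0.21 ± 0.06 and an adjusted p of 0.222. A weaker region beside it had 14.03 and 14.6 CPM in WT novelty and 10.5 and 10.4 CPM in WT standard, a log2 change of 0.45 ± 0.12 (edgeR adjusted p 0.194). For Fos and Nr4a1 the groups did not overlap, which held for 18.6% of all regions in the same direction.

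At their strongest regions, Arc, Egr1 and Junb had log2 changes close to 0. Arc, the gene of a synaptic plasticity protein, had 94.9 and 97.9 CPM in WT novelty and 95.8 and 98.0 CPM in WT standard. Egr1 had 44.0 and 47.2 CPM in WT novelty and 45.0 and 43.6 CPM in WT standard, and Junb 144 and 158 CPM in WT novelty and 152 and 159 CPM in WT standard. For these 3 genes the libraries of the groups overlapped, with log2 changes of -0.01, 0.05 and -0.04. A weaker region beside that of Egr1 had 15.4 and 17.4 CPM in WT novelty and 12.4 and 13.3 CPM in WT standard, a log2 change of 0.36 ± 0.11 that was not called (edgeR adjusted p 0.352). Npas4, a neuron-specific transcription factor gene, changed by 0.13 ± 0.07 (46.3 and 52.0 CPM in WT novelty, 42.8 and 47.2 CPM in WT standard) and Bdnf, the gene of a neurotrophin, by 0.08 ± 0.06 (66.0 and 73.4 CPM in WT novelty, 62.4 and 69.5 CPM in WT standard), neither called. Of the 38 other activity-induced genes none was called, 9 had an unadjusted p under 0.05 and were higher (3.19% of all regions), led by Per1 (0.26, edgeR adjusted p 0.066) and Dusp5 (0.22), and 1, Ptgs2, was lower (-0.17).

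Over all 18 gene lists, 439 of 459 members had a tested region at an end or start, and 2 were called, Fosb and Pde10a. The strongest such region of every gene (16800 regions) had 30 higher and 5 lower calls and a median log2 change of 0.01. Of 25 heat shock and chaperone genes none was called, 19 were above 0 and 9 had an unadjusted p under 0.05 and were higher, led by Hsp90b1 (0.20) and Hsph1 (0.18), and the list's median log2 change was 0.06. Of the 16800 regions, 9148 were above 0, 692 had an unadjusted p under 0.05 and were higher, and 436 were lower. The medians were 0.04 for both activity-induced lists, 0.05 for 23 glucocorticoid-responsive genes, -0.01 for 16 TFIID subunits (where Taf4 counts by its strongest region, not the called one), 0.02 for 29 genes of cAMP signalling, 0.01 for 19 enzymes of H3K4 methylation (Setd1b likewise), -0.01 for 40 synaptic genes and -0.02 for 45 ribosomal protein genes. These sit close to the median over all genes.

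Marker genes of cell types were not called either, apart from Pde10a in the striatum list. Medians were -0.05 for 27 genes of pyramidal and granule neurons (7 lower at an unadjusted p under 0.05, led by Tbr1, against 436 of the 16800), 0.05 for 22 of interneurons, -0.02 for 17 of astrocytes, -0.08 for 20 of the oligodendrocyte lineage, -0.09 for 21 of microglia, -0.12 for the 28 vascular genes, 0.01 for 11 of choroid plexus and ependyma (-0.001 with offsets fitted to region strength), 0.05 for the 25 of striatum and 0.01 for 18 of thalamus. Summed over the list, microglial genes had 206 and 202 CPM in WT novelty and 208 and 211 CPM in WT standard. Oligodendrocyte genes had 431 and 442 CPM in WT novelty and 435 and 482 CPM in WT standard.

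**Figure D3:**
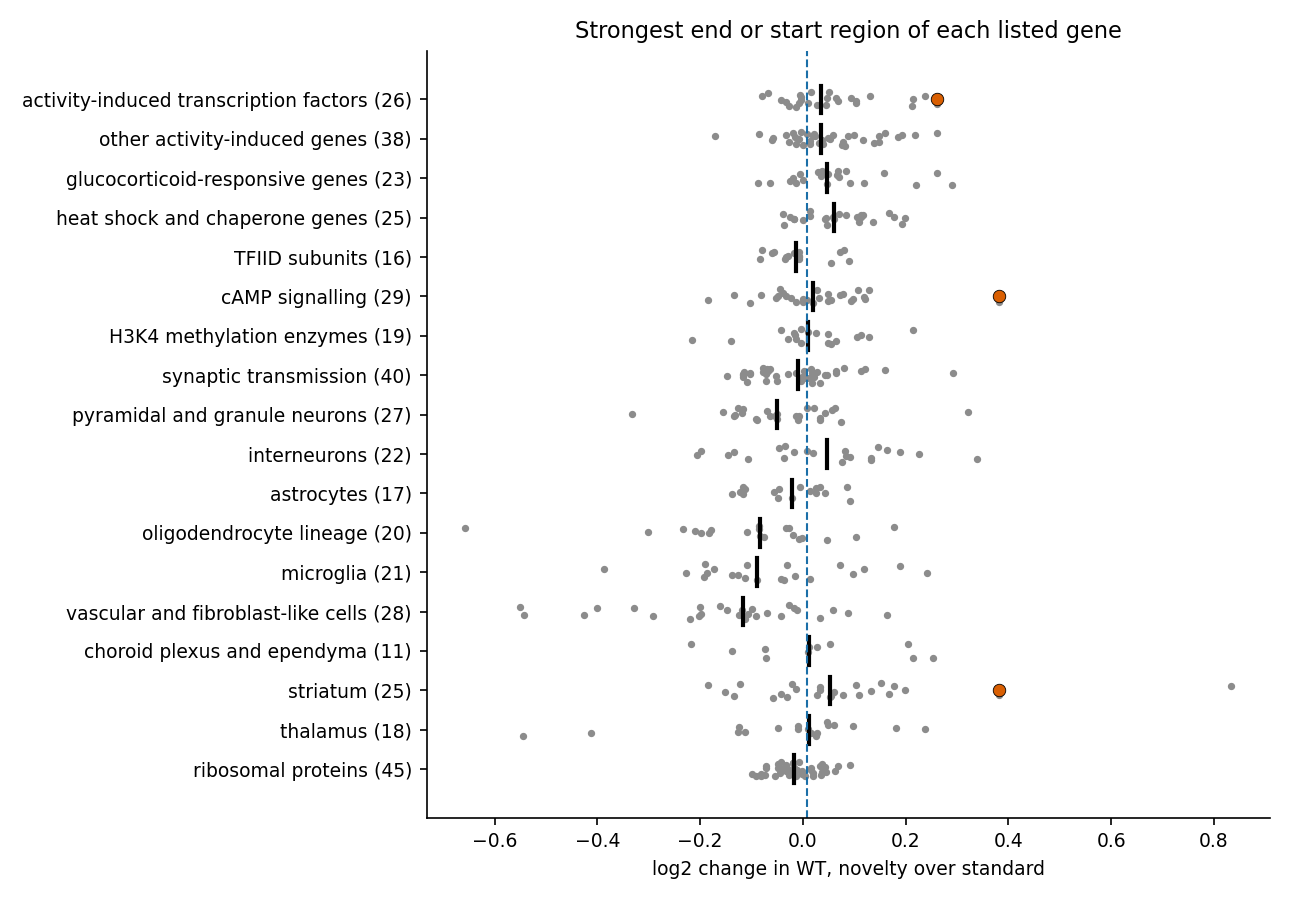
Log2 change in WT, novelty over standard (horizontal axis), of the strongest end or start region of each tested gene in 18 lists (vertical axis, number tested in parentheses). Grey points are genes, orange points the called ones, black bars the list medians and the dashed line the median over 16800 such regions. The activity-induced lists sit near the dashed line and the vascular list has the lowest median, -0.12.

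A weak signal inside Creb1, the gene of the cAMP-responsive transcription factor CREB, was named after its values were seen, since its mean level is below the minimum set for named genes. Creb1 holds 5 such regions of 439 to 517 bp between 64566032 and 64597542 of chromosome 1, and 3 of them were called. The counts summed over the 5 regions were 102 and 228 in WT novelty and 27 and 18 in WT standard. In KO novelty they were 223 and 54, and in KO standard 51 and 106. The ifWT libraries had 19 and 18 and the ifKO libraries, from the mutant line of that cohort, 23 and 15. Both WT novelty libraries were above both WT standard libraries, and in KO the groups overlapped. The 3 calls were lost without any 1 of the 4 WT libraries (edgeR adjusted p 0.0811 to 0.535). The start of Creb1 had 117 and 122 CPM in WT novelty and 108 and 111 CPM in WT standard, a log2 change of 0.13 ± 0.05 that was not called.

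Called regions were spread over classes unevenly. At gene ends or starts (within 2 kb) 36 regions were called higher and 7 lower of 21331, which is 0.202%, inside genes 4 higher and 0 lower of 8794 (0.0455%), and between genes 0 of 5716. By strength, 35 of the regions called higher and 5 of those called lower had a mean log2 CPM of 5 to 7, and none of the 693 regions above 7 was called. Widths of the called regions ran from 450 to 3835 bp. In the WT Kdm5C library, whose file lists 2321 regions, 3 of the 40 regions called higher (Slk, Jag2 and Usp31) and 0 of the 7 called lower overlapped a listed region, against 6.46% of all tested regions. The file of the WT H3K4me1 library gave identical numbers (2321 regions, 6.46% of all tested regions, the same 3). The positions therefore cannot tell whether the overlap is particular to Kdm5C.

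The same contrast in Kdm5c KO mice compared KO libraries only. Its p-values rest on a spread estimated over all 8 libraries, so they are not independent of the WT calls. All 40 regions higher in WT were above 0 in KO, against 49.3% of all regions, and all 7 lower in WT were below 0 in KO, against 50.7%. The changes were smaller, with median log2 changes of 0.12 and -0.13, and 18 of the 40 had an unadjusted p under 0.05 and were higher (2.61% of all regions), while 2 of the 7 were lower (2.51%). At either sign, 5.12% of all regions passed that unadjusted threshold in KO. In 17 of the 40 the KO libraries of the groups did not overlap in the higher direction (16.2% of all regions), and in 3 of the 7 in the lower direction (17%). Only Taf4 and Pde10a were called in KO as well.

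The count of shared signs depended on KO standard replicate 1. At 37 of the 40 higher regions this library was below KO standard replicate 2 (49.9% of all regions), with a median log2 difference of -0.22, and at all 7 lower regions it was above. Without KO standard replicate 1, 28 of the 40 were above 0 (50.1% of all regions), with a median log2 change of 0.02, and 4 of the 7 were below 0. Among the 40, the log2 change outside Creb1 was then largest at Pde10a (0.43), Taf4 (0.34), Fosb (0.22) and Nfyb (0.2), and it was 0 at Sirt1, Jag2 and Slk. Without KO standard replicate 2, 40 of the 40 were above 0 (50.4% of all regions), with a median of 0.25. Over the 11249 stronger regions, the WT change correlated at r = -0.40 with the difference between the KO standard replicates and at r = 0.26 with the KO change, as a description across regions, which share libraries and base composition.

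**Figure D4:**
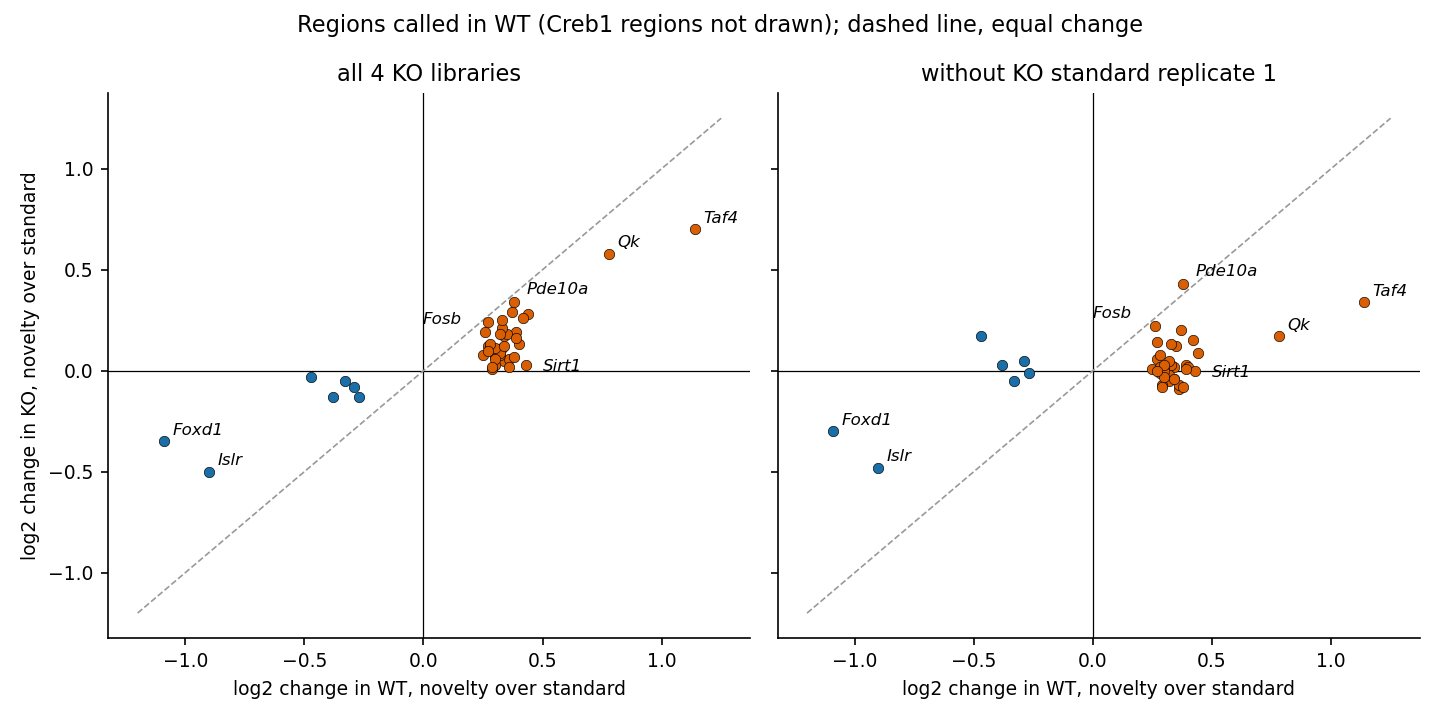
Log2 change in KO (vertical axes) against log2 change in WT (horizontal axes), novelty over standard, at the 44 called regions outside Creb1, orange for higher and blue for lower in WT. With all 4 KO libraries (left) every point lies on the same side of 0 in both genotypes, and without KO standard replicate 1 (right) most orange points fall near 0 in KO while Pde10a, Taf4 and Fosb stay above it.

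In KO, 5 regions were called and all were higher (0.014% of those tested). They were at Phactr3, Taf4, Hsph1, Nr4a1 and Pde10a. At Taf4, KO novelty had 26.8 and 27.2 CPM and KO standard 11.7 and 21.3 CPM, a log2 change of 0.70 ± 0.13 (edgeR adjusted p 0.0271) that was 0.34 (adjusted p 0.37) without KO standard replicate 1. Leaving out KO standard replicate 2 instead gave 1.21 (edgeR adjusted p 1.9e-09). The Taf4 call was also lost without KO novelty replicate 1 (0.18) or 2 (0.4). At Pde10a, KO novelty had 110 and 115 CPM and KO standard 94.7 and 83.8 CPM, a log2 change of 0.34 ± 0.05 (edgeR adjusted p 0.0079) that was 0.43 (adjusted p 5.1e-05) without KO standard replicate 1. The Pde10a call was lost without any other KO library, with adjusted p of 0.075 to 0.4. Nr4a1 had 59.5 and 61.0 CPM in KO novelty and 47.8 and 49.0 CPM in KO standard, and Hsph1, a chaperone gene, had 130 and 127 CPM in KO novelty and 107 and 102 CPM in KO standard. The Nr4a1 call was kept only without KO standard replicate 2 (edgeR adjusted p 0.027; 0.097 to 0.64 without any other KO library). The calls at Hsph1 and Phactr3 were kept only without KO standard replicate 1 (0.0033 for both), with 0.058 to 0.22 and 0.075 to 0.84 without any other KO library.

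No region passed the test of the difference between the KO and WT changes (0% called, 3.91% at an unadjusted p under 0.05, smallest adjusted p 0.94, edgeR). DESeq2 and limma-voom called 0 as well, with 388 and 1346 regions at an unadjusted p under 0.05. That smallest adjusted p was at Sirt1, where KO novelty had 84.8 and 80.9 CPM and KO standard 79.5 and 82.9 CPM. The KO change there was 0.03 against 0.43 in WT, a difference of -0.40 ± 0.09 on the log2 scale. Without WT standard replicate 2 that difference was -0.54 and was called (edgeR adjusted p 0.0108). Sirt1 was therefore not shown to differ between the genotypes by the full fit.

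Levels in the unexposed ifWT mice were set beside those of WT after the calls were known, scaled by library totals. At Taf4 WT novelty had 25.9 and 28.2 CPM and ifWT had 50.5 and 39.2 CPM, although no ifWT mouse had been exposed to novelty per the labels. At Qk WT novelty had 20.6 and 21.1 CPM and ifWT 39.5 and 30.0 CPM, and at Sirt1 WT novelty had 90.6 and 92.2 CPM and ifWT 114 and 111 CPM. At 27 of the 40 higher regions both ifWT libraries were above both WT novelty libraries (19.9% of all regions), and at 35 both were above both WT standard libraries (21.6%). At 6 of the 7 lower regions both ifWT libraries were below both WT standard libraries (35.2%). With TMM scaling over 12 libraries the counts were 31, 35 and 6.

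Pde10a, Fosb and the 3 Creb1 regions were the 5 exceptions among the 40. At Pde10a WT novelty had 98.4 and 94.0 CPM, WT standard 72.2 and 75.7 CPM, and ifWT 73.7 and 72.7 CPM. At Fosb WT novelty had 76.9 and 78.1 CPM, WT standard 66.1 and 63.8 CPM, and ifWT 64.9 and 63.5 CPM. At these genes the unexposed ifWT libraries thus lay at the level of WT standard and below both WT novelty libraries. Both ifWT libraries were below both WT novelty libraries at 33.4% of all regions (25.1% with TMM scaling over 12 libraries). The cohorts differ in strain and mouse line, and the part of these in the levels was not tested.

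**Figure D5:**
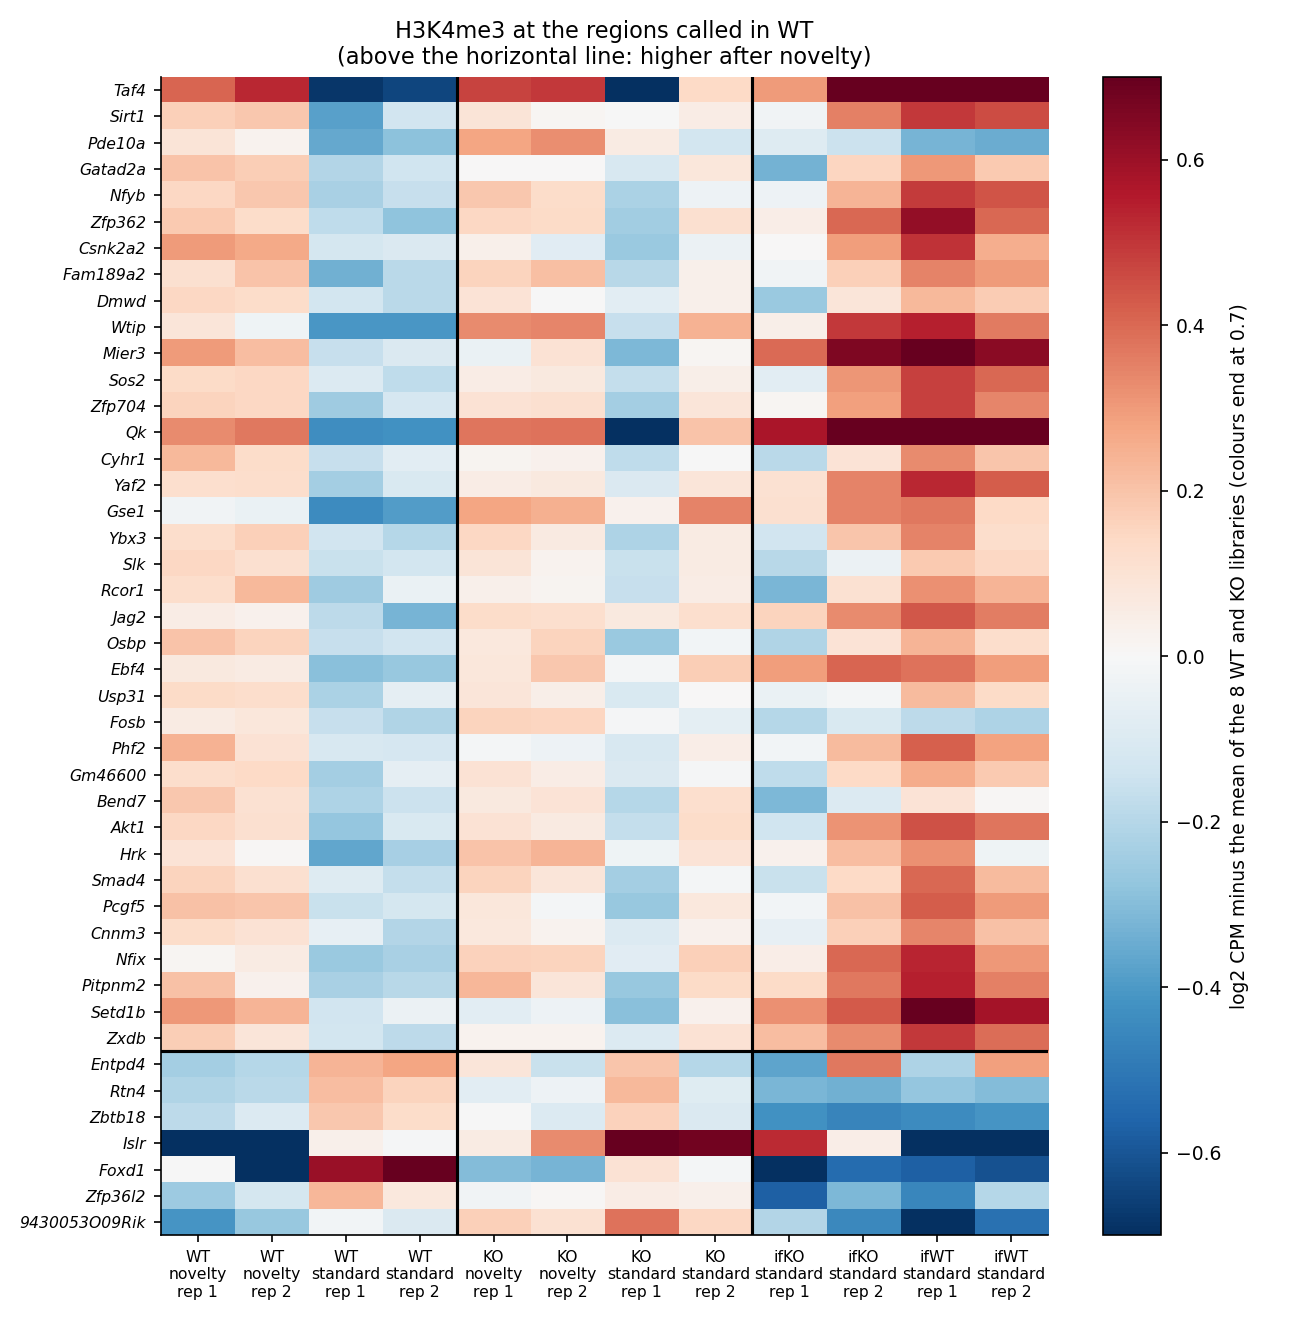
H3K4me3 at the 44 called regions outside Creb1 (rows) in 12 libraries (columns), as log2 CPM scaled by library totals minus the mean of the 8 WT and KO libraries. Regions above the horizontal line were called higher in WT novelty. KO standard replicate 1 is bluer than replicate 2 in most of these rows, and the ifWT libraries are red in most of them but blue at Pde10a and Fosb.

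GC content moved with the WT contrast across regions that hold a promoter window. Over the 8692 stronger ones (mean log2 CPM from 5 up), GC content correlated at r = 0.28 with the WT change, at r = -0.04 with the KO change and at r = -0.28 with the difference between KO standard replicates 1 and 2, as a description across regions. A fit on the 10978 regions that hold a window called 33, and the same fit with offsets fitted to GC content called 26. Fosb kept its call, with edgeR adjusted p of 0.013 and 0.0154. Most other regions called both in the full fit and in this one kept theirs as well. Jag2 (0.0991) and 9430053O09Rik (0.057) lost theirs with the offsets. The part of GC content in the calls of regions without a window was not tested.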

How the data were processed

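The deposited H3K4me3 files hold raw read counts per region, 1 count per region and library over a shared set of regions, with no normalization by the authors per the file headers. The submitters' processing notes name R 3.3, DESeq2 1.10.0, MACS2 2.1.0, Bowtie2 2.2.9, SAMtools 1.3.1 and build mm10, and reads were single-end per the labels' protocols. The notes and headers do not say how the regions were drawn or whether duplicates were removed. The deposited Kdm5C and H3K4me1 WT files hold a coverage signal per region, and only the positions of their regions were used.

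Of 36005 listed regions, 9 repeats with identical counts were removed, and filterByExpr removed a further 155. Coordinates are as the files give them. Regions were assigned to genes with the RefSeq gene table of GRCm38.p6, which has no strand, as within 2 kb of an end or of a start in the promoter table, inside a gene, or within 50 kb. The 8 WT and KO libraries were fitted in edgeR 4.0.16 (R 4.3.3) with 1 mean per group, TMM factors and quasi-likelihood tests, and p-values were adjusted over all regions at 0.05. Standard errors come from the F statistic. CPM uses TMM-scaled library sizes, and 3 counts correspond to 0.0971 to 0.136 CPM. Such floors and intervals cover counting error only, because PCR reads that carry no molecular identifier are not independent. Scripts were tested on simulated data.

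Each listed gene was represented by its strongest end or start region. Named are the 20 higher and up to 10 lower called regions with a gene, the smallest p, a mean log2 CPM of at least 1 and no overlap in WT, called list members, and a fixed set of 11 genes. Other called genes, Creb1, Qk neighbours, Per1 and Hsph1 included, were chosen after their values were seen. The members and lists were chosen with earlier results of these data known. No 2 libraries of a group agreed within counting error (chi-square over its degrees of freedom, 2.23 to 2.78 in the fitted groups). DESeq2 1.42.0, limma 3.58.1 (voom), other scalings, filters, library sets, a replicate block and single libraries left out were the alternatives. The comparison with ifWT, the KO contrast without each KO library, and the GC offsets were added after seeing the data.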

Additional observations from a re-analysis of the deposited data

How the results depend on the processing

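For novelty in WT, none of the 47 called regions changed direction under any alternative. The WT groups did not overlap at any of the 47, so leaving out 1 WT library could hardly reverse a direction, and the stable directions are no separate support. Uncalled changes near 0 at Kdm5c, Junb, Arc, Egr1 and the strongest Taf4 region changed sign when 1 WT library was left out. DESeq2 gave no adjusted p to 11 of the 47 and called 17 of the other 36. Those without one include the Taf4 region, Qk, Islr, Foxd1, Setd1b and the called Creb1 regions. The 47 calls became 17 with DESeq2 and 23 with limma-voom. They became 106 (78 higher) when the 4 WT libraries were fitted alone, 2 when all 12 H3K4me3 libraries were fitted together, and 1 to 14 when 1 WT library was left out. The share of higher calls was 85.1% in the main setting and 73.6% with the WT libraries alone. Scaling by RLE factors, library totals or region strength gave 46, 56 and 54, and no filter gave 47. For novelty in KO, the 5 calls became 9 with library totals, 11 with offsets fitted to region strength, 2 with DESeq2, 3 with limma-voom, 0 with the KO libraries alone (1672 at an unadjusted p under 0.05), 0 with all 12 libraries (1416), and 0 to 37 when 1 KO library was left out. For the interaction, leaving out 1 WT library gave 0 to 1 calls. The share of WT calls with the same sign in KO was 85.7% for the 7 regions called without WT novelty replicate 2, and for the 47 it was 91.5% without KO novelty replicate 1 and 68.1% without KO standard replicate 1. The share of calls at gene ends or starts was 100% with all 12 libraries and without WT standard replicate 1. List members called were 5 with the WT libraries alone, 1 with all 12 libraries, 0 to 1 with 1 library left out, and 4 when every region at a member's end or start was counted (Fosb, Pde10a, Setd1b and Taf4).

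Replicate numbers occur in 2 pairs per genotype, and the labels do not say that they mark shared days or litters. Deviations of same-numbered libraries correlated at 0.04 in WT and 0.05 in KO over all regions, and at 0.23 and 0.10 over the 11249 stronger ones. With a replicate block 65 regions were called in WT, 14 in KO and 1 for the interaction.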
